A study of Mus musculus with 2 samples.

Results

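Pax2, Pax3 and Pax7 are the members of the Pax family of transcription factor genes to which the deposited list of macroH2A1 peaks in mouse embryonic stem cells assigned at least 1 peak. The members were chosen by the measured peak positions, through the authors' assignment of peaks to genes: they are the rows of the list whose gene symbol is Pax2, Pax3 or Pax7, which gave 6 of the 2560 listed peaks. All peaks within 200 kb of either end of these 3 genes were added for context, whatever gene they were assigned to, which gave 12 peaks in all. Because the members were chosen for having peaks, their number is a description and was not tested.

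MacroH2A1 is a variant of histone H2A with a large additional globular domain. It was mapped by chromatin immunoprecipitation and sequencing in E14, an established mouse embryonic stem cell line, which was untreated and kept in serum-containing medium with leukemia inhibitory factor, the cytokine that holds such cells undifferentiated. There were 2 libraries, 1 precipitated with an antibody raised against mouse macroH2A1 and 1 with non-specific IgG, with no replicate of either, so no difference here has a replicate check. The values of the IgG library were not analysed here, and no read count, enrichment or score of a peak was used, so the depth behind each peak is unknown. RNA levels, and with them the state of marker genes of the cell type, were not analysed here.

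Pax proteins bind DNA through a paired domain and regulate the formation of organs in the embryo. Pax2 acts in the kidney, eye, inner ear and the boundary of midbrain and hindbrain. Pax3 and Pax7 are close relatives that act in the dorsal neural tube, the neural crest and the precursors of skeletal muscle, and Pax7 marks the satellite cells of adult muscle. MacroH2A is best known from silent chromatin, including the inactive X chromosome and silent developmental genes.

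The 3 genes differed in where their peaks lay. Pax2 had a single wide peak far upstream, Pax3 had 2 peaks inside the gene, and Pax7 had 1 inside and 2 upstream, beside 5 further peaks assigned to its neighbours. No peak covered the start of any of the 3 genes, and the closest began 14.1 kb away. Positions below are in the mouse build mm9, as deposited.

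**Figure D1:**
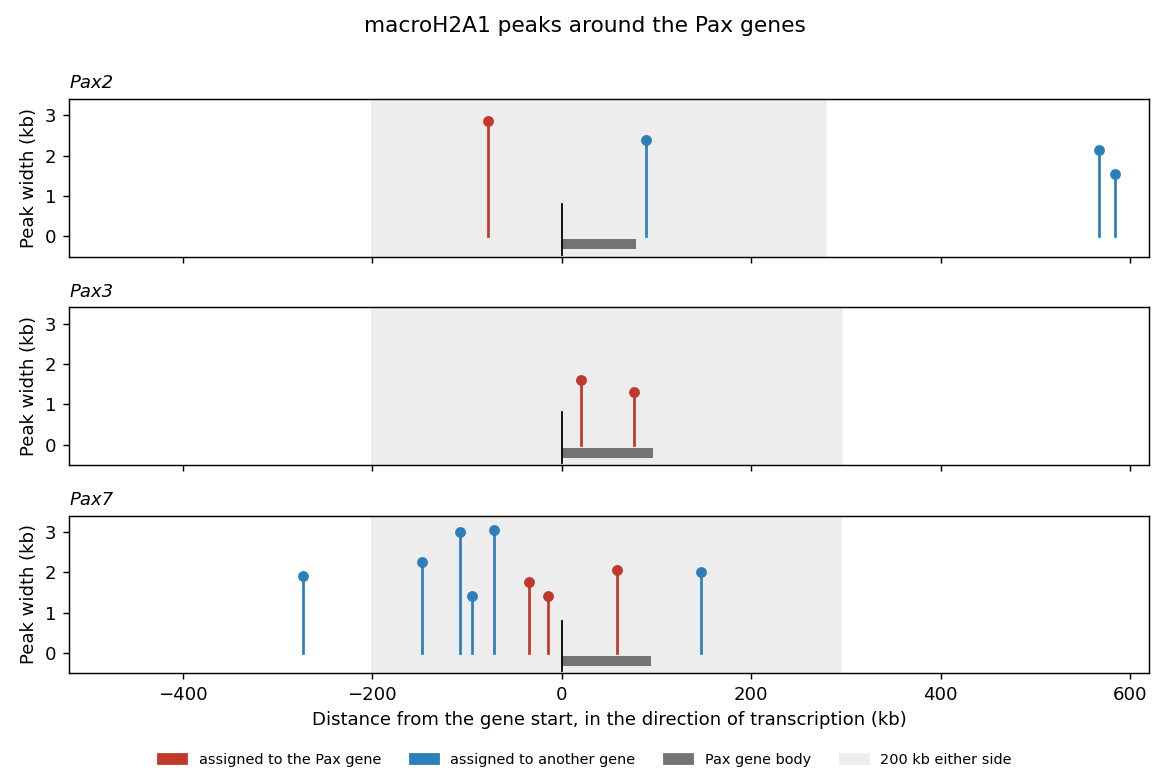
Peaks around Pax2, Pax3 and Pax7. The x axis is the distance of the midpoint of the peak from the gene start in kb, with transcription running to the right, and the height of each stem is the peak width in kb. The grey bar is the gene body and the pale area reaches 200 kb beyond both gene ends. Red stems are peaks assigned to the Pax gene and blue stems those assigned to another gene. The Pax7 panel holds 8 peaks in the pale area, and the panels of Pax2 and Pax3 hold 2 each.

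Since the distances are counted from gene starts, the bases before a start are shown for the members with an entry in the RefSeq promoter table of build GRCm38.p6. Pax2 and Pax7 were found there, and Pax3 was not. RefSeq gives Pax2 3 starts, of which the most upstream is shown (chr19:44746351-44746600, plus strand). Pax7 has 1 (chr4:139832969-139833218, minus strand). These positions belong to a later build than mm9 and cannot be set beside those of the peaks, and the starts need not be the same as those in the peak list. Each line gives the 250 bases before the start, 5′ to 3′ on the strand of the gene, with CG dinucleotides in capitals. The motif searched was CG, which reads the same on both strands.
Pax2: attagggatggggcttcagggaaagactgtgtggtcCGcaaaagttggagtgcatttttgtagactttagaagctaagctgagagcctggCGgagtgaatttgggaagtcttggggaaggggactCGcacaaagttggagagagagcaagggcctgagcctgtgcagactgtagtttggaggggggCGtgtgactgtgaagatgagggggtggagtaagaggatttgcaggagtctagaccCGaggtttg
Pax7: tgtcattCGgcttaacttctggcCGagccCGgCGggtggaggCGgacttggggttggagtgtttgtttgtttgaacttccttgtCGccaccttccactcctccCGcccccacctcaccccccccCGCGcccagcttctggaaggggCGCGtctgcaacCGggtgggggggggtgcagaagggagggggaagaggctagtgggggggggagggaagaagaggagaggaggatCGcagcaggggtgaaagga

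The Pax7 sequence held 13 CG dinucleotides at 65.2% G and C, and 31.5% of all promoters of this length held as many or more. The Pax2 sequence held 5 at 52.8% G and C, against 55.6% of promoters with as many or more. The other 2 Pax2 starts held 20 and 25. The median was 6 over all 32841 promoters and 11 over the 1203 promoters of genes whose symbol carries a peak anywhere in the list. The Pax sequences thus ran from just under the first of these medians to well above both. The bases under the peaks themselves were not read here.

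The Pax2 gene (ENSMUSG00000004231) lies on the plus strand of chromosome 19 from 44831884 to 44910517, a length of 78.6 kb. RefSeq gives Pax2 several starts, and distances here are from the start used in the list. Its peak spans 44752550 to 44755400 and lies 76.5 kb upstream of that start, about as far from it as the gene is long. Of all listed peaks, 70.0% were closer to the start of their assigned gene. At 2851 bp it is the widest of the 6 Pax peaks, and 98.8% of all peaks were narrower. The nearest other peak on the chromosome begins 164 kb away, less than the median of 224 kb over all distinct regions.

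That other peak, from 44919700 to 44922100, lies past the end of Pax2 and was 2401 bp wide, with 96.8% of all peaks narrower. It lies 9.18 kb from the Pax2 end, and the list assigned it to ENSMUSG00000058350, a gene of 693 bp without a symbol whose start is 3.68 kb away. The peak closest to the body of Pax2 is therefore not among those counted for Pax2. The body of Pax2 itself, between these 2 peaks, held no peak. None lay elsewhere within 200 kb, and the first peak beyond that distance was 487 kb past the gene end.

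Pax3 (ENSMUSG00000004872) lies on the minus strand of chromosome 1 from 78097842 to 78193691 and is 95.9 kb long. One peak spans 78172950 to 78174550, with a width of 1601 bp, and lies 19.1 kb inside the gene from its start. The other spans 78116450 to 78117750, with a width of 1301 bp, and lies 18.6 kb from the gene end and 75.9 kb from the start. The midpoints stand at 20.8% and 79.9% of the gene length, so the peaks are about equally far from the 2 ends. A gap of 55.2 kb separates them. Whether they fall in exons or introns was not analysed here.

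Both Pax3 peaks had ordinary widths: 51.4% of all peaks were narrower than the first and 22.5% narrower than the second. Around the gene the list was empty. No peak assigned to another gene lay within 200 kb, and the nearest was 951 kb upstream, assigned to a gene without a symbol. Past the gene end there was none within 1000 kb. Having no peak of another gene within 200 kb was common: it held for 63.7% of the 1409 genes with a symbol and a peak.

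Pax7 (ENSMUSG00000028736) lies on the minus strand of chromosome 4 from 139294249 to 139388883 and is 94.6 kb long. The peak inside it spans 139329000 to 139331050, is 2051 bp wide and lies 57.8 kb from the start and 34.8 kb from the end. The closer upstream peak spans 139403000 to 139404400, is 1401 bp wide and lies 14.1 kb before the start, the shortest distance to a start among the 6 Pax peaks. The second upstream peak spans 139422750 to 139424500, is 1751 bp wide and lies 33.9 kb before the start. The widest of the 3 is thus the one inside the gene, with 87.9% of all peaks narrower, against 31.9% and 66.1% for the other two.

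Pax7 had more assigned peaks than Pax2 or Pax3. Of the genes with a symbol and a peak, 14.2% had 2 or more assigned peaks, as Pax3 did, and 2.98% had 3 or more, as Pax7 did. The 2 upstream peaks of Pax7 are separated by 18.4 kb and were each other's nearest neighbours. The peak inside the gene stands apart from them by 72.0 kb. These 2 upstream peaks were the only ones of the 6 Pax peaks with another peak of the list within 50 kb, as 20.9% of all distinct regions had.

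Beyond the assigned peaks, the upstream side of Pax7 went on with 4 more. A peak of 3051 bp spans 139458800 to 139461850, 69.9 kb before the Pax7 start, and 99.4% of all peaks were narrower. It is followed by a peak of 1401 bp from 139482850 to 139484250 and by one of 3001 bp from 139494600 to 139497600. The list assigned these 3 to ENSMUSG00000080658, a gene of 87 bp without a symbol whose start is 16.8, 4.21 and 16.0 kb from them. The most distant of the 4, from 139535250 to 139537500, is 2251 bp wide and 146 kb before the Pax7 start. It was assigned to Klhdc7a, a kelch-domain gene, from whose start it lies 11.3 kb.

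The 6 upstream peaks, of which 2 were assigned to Pax7, form a series over 135 kb, from 139403000 to 139537500, in which the gaps run from 10.4 to 37.7 kb. When peaks no more than 50 kb apart were linked, a distance chosen after values were seen, the list fell into 2257 runs. Of these, 2023 were single peaks. Counted per run and not per peak, 3 runs (0.133%) held 6 or more peaks. The run before Pax7, which also spans the whole of Klhdc7a (139516135 to 139523941), was one of these. The others were both on chromosome 5, 1 of 6 peaks at Sez6l and 1 of 8 peaks at genes without a symbol. The Pax7 run covered 12.9 kb of sequence, and the one at Sez6l 10.0 kb over 111 kb. On the other side of the run the next peak was 124 kb away, 272 kb from the Pax7 start and so outside the 200 kb.

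Past the end of Pax7 there was a single peak within 200 kb, from 139241400 to 139243400, 2001 bp wide. It lies 50.9 kb from the Pax7 end and was assigned to Tas1r2, which encodes a subunit of the sweet taste receptor and whose start is 32.0 kb away. Beyond it the list was empty for 502 kb. The peaks within 200 kb of Pax7 thus lie mostly on its upstream side: 6 upstream, 1 inside and 1 past the end.

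With 8 peaks within 200 kb, Pax7 stood near the top of the genes with a symbol and a peak, of which 7 (0.497%) had 8 or more. Sez6l, with 9, was the single gene above it, and 5830454E08Rik, Entpd3, Gm6588, Klhdc7a and Myrip had 8 as well. Klhdc7a is a neighbour of Pax7, and most of its peaks are the same ones. Of the others, 5830454E08Rik, Entpd3 and Myrip are all on chromosome 9, and Sez6l and Gm6588 both on chromosome 5. The 7 genes therefore need not be 7 separate places. Among the 306 such genes that are between 50 and 150 kb long, as the 3 Pax genes are, Pax7 was the only one with 8 or more (0.327%). This range was chosen after values were seen, and it leaves out the neighbour Klhdc7a, which is 7807 bp long. Counting just the peaks assigned to other genes, Pax7 had 5, and 0.568% of genes with a symbol and a peak had 5 or more. Pax2 and Pax3, with 2 each, were like 387 of the 1409 genes, while 801 had fewer and 221 had more.

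**Figure D2:**
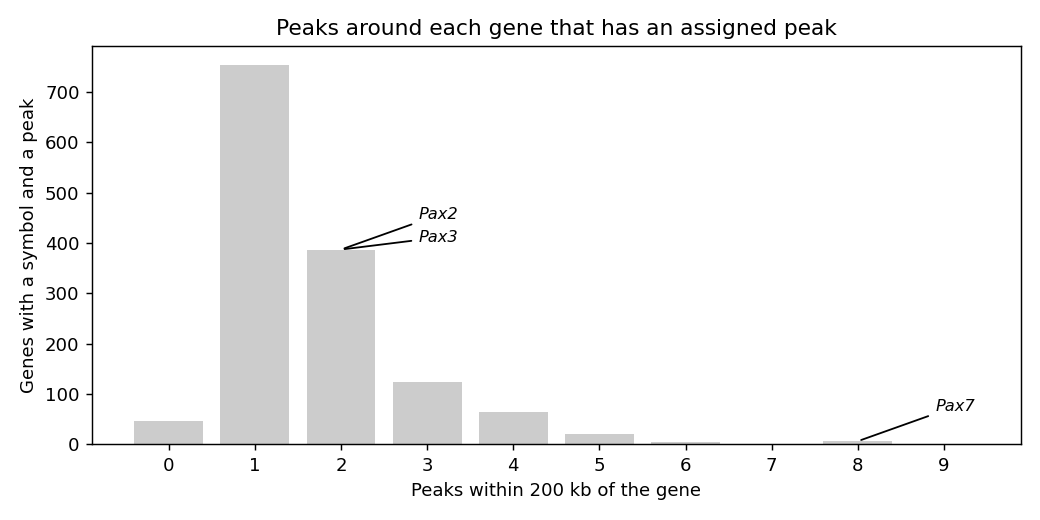
Number of peaks within 200 kb of each of the 1409 genes that have a symbol and an assigned peak. The x axis is the number of peaks and the y axis the number of genes. Pax2 and Pax3 stand at 2, a bar of 387 genes, and Pax7 at 8, a bar of 6 genes.

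Density restates these counts, since the windows of Pax2, Pax3 and Pax7 were 479, 496 and 495 kb long. The gene body of Pax7 with 200 kb on both sides held 16.2 peaks per Mb, and peaks covered 3.42% of it. Chromosome 4 as a whole, from its first to its last peak, held 1.19 peaks per Mb with 0.193% covered. Around Pax2 there were 4.18 peaks per Mb against 1.23 on chromosome 19, and around Pax3 4.03 against 0.899 on chromosome 1. A stretch chosen around an assigned peak has at least that peak, so densities above those of the chromosomes are no finding, and the values serve to set the 3 genes beside each other.

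Placement relative to the genes was mixed. Of the 6 Pax peaks 3 lay inside the gene, 3 upstream and 0 downstream. In the whole list 14.2% of peaks were inside and 51.4% upstream of the assigned gene. The share of downstream peaks in the whole list was not counted here, so nothing is read from the 0. At genes with a symbol of 50 to 150 kb, 28.3% of 361 peaks were inside. None of the 6 Pax peaks lay within 10 kb of the start, where 23.6% of all peaks were found, and 3 lay within 50 kb, where 60.4% were. The median distance to the start was 45.9 kb over the 6 Pax peaks and 32.2 kb over all peaks. The 6 peaks belong to 3 genes and are not independent, so these shares only describe them.

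Widths of the Pax peaks lay on both sides of the median of the list. Their median was 1676 bp, with extremes of 1301 and 2851 bp, against 1551 bp over all peaks with quartiles of 1301 and 1814 bp. The narrowest listed peaks were 1051 bp wide, so shares of narrower peaks concern a list that starts at this width. Of the 6, 4 were wider than the median of the list, as were 48.6% of all peaks. The 6 other peaks within 200 kb were wider as a set, with a median of 2326 bp and a range of 1401 to 3051 bp. Of these, 5 exceeded the median of the list. By gene, 5 lay near Pax7, 1 near Pax2 and 0 near Pax3, so the contrast comes mostly from Pax7. At Pax2 the other peak was narrower than the assigned one, at 2401 against 2851 bp. The widest peaks near Pax7, of 3051 and 3001 bp, were assigned to the gene without a symbol and not to Pax7.

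**Figure D3:**
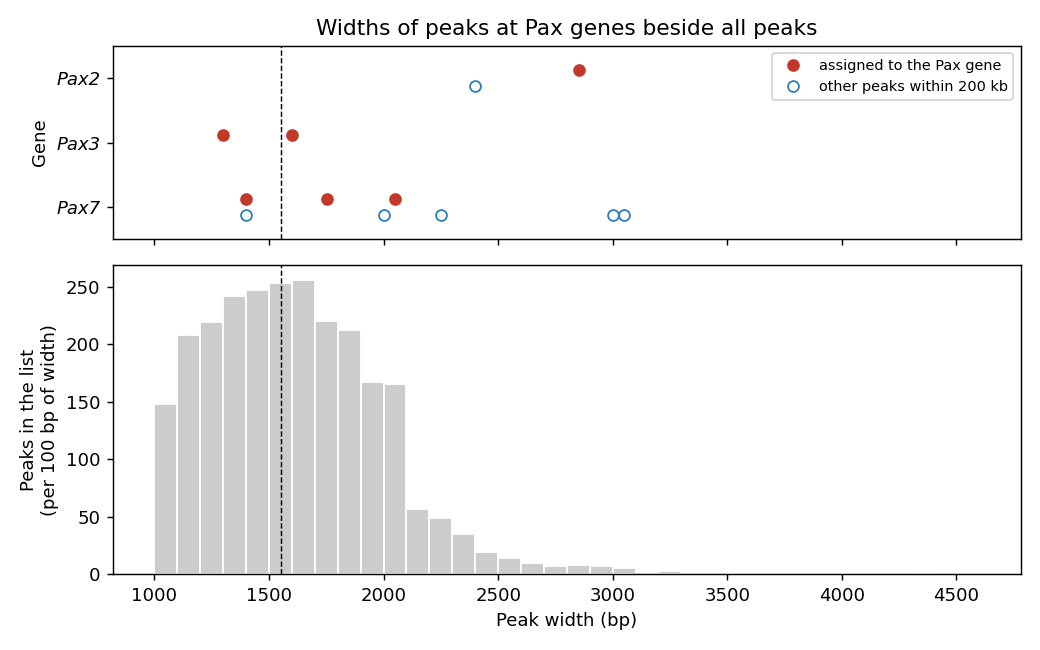
Peak widths in bp. The upper panel has 1 point per peak for each Pax gene, filled where the peak was assigned to it and open for the other peaks within 200 kb. The lower panel is a histogram of all 2560 peaks, and the dashed line is their median of 1551 bp. The Pax2 peak at 2851 bp and the open Pax7 points at 3001 and 3051 bp lie in the thin upper tail.

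Of the 9 Pax genes, 3 had an assigned peak (33.3%), against 6.15% of the 21631 protein-coding genes in the RefSeq table. The rule chose these 3, so nothing is read from this share. The remaining members, Pax1, Pax4, Pax5, Pax6, Pax8 and Pax9, had none. Pax6 is a regulator of eye and forebrain development and Pax5 of B cells. A peak near one of them could have been assigned to a neighbour with a closer start, so the 3 nearest protein-coding genes on both sides were looked up by gene order. For each of the 6 genes without a peak, 0 of these 6 neighbours had one. The same was true of Pax2 and Pax3, whereas at Pax7 2 of 6 did, namely the directly adjacent Klhdc7a and Tas1r2. Neighbours without a symbol in the list could not be looked up in this way. The peak 9.18 kb past the Pax2 end, assigned to such a gene, was missed for this reason. A count of 0 therefore does not mean that no peak lies near the gene.

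Genes that work with Pax proteins were taken from 6 lists of partners and of regulators of the same tissues, in all 83 genes apart from the Pax family. Of these 13 (15.7%) had an assigned peak, beside the 6.15% of all protein-coding genes. That background takes no account of gene length or of the space between genes. The lists were written with earlier results of these data known, so nothing is read from this share. They had 17 peaks, of which 3 lay within 10 kb of a gene start, 0 covered one and 1 was inside the gene. In the whole list 23.6% of peaks lay within 10 kb and 14.2% were inside. The median distance to the start was 30.1 kb, near the 32.2 kb over all peaks, and the median width was 1701 bp.

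Among the homeobox genes related to Six6 and the Eya and Dach genes, whose products act in a network with Pax proteins, 2 of 12 had a peak. Six6, an eye and pituitary homeobox gene, had 1 inside the gene 2.47 kb from its start, and Eya1, a transcription coactivator of ear and kidney development, had 1 upstream at 81.9 kb. In the list for kidney, ear and eye there were 2 of 18. Sall1, a zinc finger gene of the kidney, had 2 downstream peaks at 65.7 and 102 kb from its start, and Rax, a homeobox gene of the eye field, had 1 upstream at 3.76 kb and 1 downstream at 14.1 kb.

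At the boundary of midbrain and hindbrain, where Pax2 acts, 2 of 7 genes had peaks. En1, a homeobox gene of the boundary region, had 1 at 27.7 kb, and Otx2, a homeobox gene of the forebrain and midbrain, had 2, at 16.5 and 42.0 kb, all downstream. In the muscle list, 2 of 14 had a peak: Mef2c, a cofactor of the myogenic factors, 777 kb upstream, and Cxcr4, a chemokine receptor of migrating precursors, 30.1 kb from its start on the downstream side. The myogenic factors Myf5, Myod1, Myf6 and Myog, which act after Pax3 and Pax7 in the muscle lineage, had no assigned peak. Since 6.15% of all protein-coding genes had one, most genes had none, and nothing is read from the absences named here. In the neural crest list Tfap2c, an AP-2 transcription factor gene, was the 1 of 20 with a peak, at 180 kb, and Sox10, Foxd3 and Snai2 had none.

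The spinal cord list had 4 of 15. Shh, the secreted signal that restricts Pax3 and Pax7 to the dorsal side, had a peak over its gene end, 9.09 kb from its start. Its receptor gene Ptch1 had 1 upstream peak at 28.1 kb and the pathway factor Gli2 1 upstream peak at 88.7 kb. Lmx1a, a roof plate homeobox gene, had 2, 1 upstream at 29.3 kb and 1 downstream at 337 kb. By list, the shares ran from 5.0% for the neural crest to 28.6% for the boundary of midbrain and hindbrain. The share of all protein-coding genes was 6.15%, so the neural crest list lay under it. The lists hold between 7 and 20 genes each, so a share moves by several percentage points with each gene, and none is read as a result.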

How the data were processed

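The authors deposited a peak list made from the macroH2A1 library. Bowtie and the build NCBIM37 (mm9) are named in the submitters' processing notes. Peak names start with CCAT, and per the file headers a peak's gene is the one with the nearest start. For the peak calling, the threshold, the control and the annotation release were not given in the sources used here. Since the row number has no header, the column names were shifted by 1. Of the rows, 891 (34.8%) carry no gene symbol.

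Distances were recomputed in Python 3.11.15 with pandas 2.3.3, from the gene start to the closest base within the peak. Regions listed more than once were counted once in spacing and neighbour counts (2558 distinct regions). Gene names, gene order and the protein-coding background came from RefSeq GRCm38.p6; 1331 protein-coding genes with a peak were matched by name and chromosome. The window counting was tested on simulated data.

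The genes named are the 3 Pax genes, genes assigned a peak within 200 kb of them, list members with a peak, and genes or runs at or above Pax7. Members and lists were chosen with earlier results of these data known. The linking distance, the length range and the last group of named genes were chosen after values were seen. No test was run, since there is 1 library per antibody.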

Additional observations from a re-analysis of the deposited data

How the results depend on the processing

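No paired analysis was possible because each antibody has 1 library and no test was made. The number of Pax peaks was 6 as assigned and 4 among peaks above the list's median width, but 3 when a peak had to overlap the gene body and 12 when every peak within 200 kb was taken. Their median width of 1676 bp became 1601 bp with 1 peak per gene and 2026 bp with all 12 peaks. The number of peaks near Pax7 ran from 6 within 100 kb, or with wider peaks alone, to 9 within 500 kb. Within 1000 kb, a distance added after the data were seen, it was 14, and 4 for Pax2. The number near Pax3 fell to 1 with wider peaks. Measured from midpoints or from the lower coordinate, the 6 distances grew by at most 2.85 kb, and their order was kept. The depth of the libraries is unknown, so a missing peak cannot be read as missing macroH2A1.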

Other observations

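Beyond 200 kb, the peaks next to Pax2 were a pair assigned to Btrc, which encodes an F-box protein that marks beta-catenin for degradation. They span 45397400 to 45399550 and 45415400 to 45416950 on chromosome 19, 2151 and 1551 bp wide, with a gap of 15.9 kb between them, and lie 38.7 and 21.3 kb upstream of the Btrc start. Far upstream of Pax7, 536 and 623 kb from its start, 2 peaks of 2151 and 3051 bp were assigned to ENSMUSG00000052098, a gene of 492 bp without a symbol. The second of these matched the widest peak near Pax7 in width. Widths in the list lie on a regular grid, so equal widths are common, and 3 listed peaks were 3051 bp wide.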
